A study of Mus musculus with 6 samples.

Results

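Immediate early response genes were followed in uteri of 12-month-old CD-1 mice, in dissociated cells and in intact tissue sections. The set held 10 genes chosen by name, Fos, Fosb, Fosl1, Jun, Junb, Jund, Egr1, Atf3, Ier2 and Ier3, and all 10 were present among the 24077 genes of the dissociated-cell counts and the 30828 genes of the section counts. No measured value entered the rule, though earlier results of these data were known when the genes were chosen. Female pups had received corn oil (CO) or diethylstilbestrol (DES), a synthetic estrogen, at 1 mg/kg/day by injection under the skin in the first days of life. All CO uteri were collected at estrus, the stage at which the cycle of exposed adults stays. One library of dissociated cells was made per treatment, from the pooled uteri of 2 CO mice or 4 DES mice, and Visium sections came from 2 CO mice (CO A and CO B) and 2 DES mice (DES A and DES B). CD-1 mice given DES in this way often have uterine adenocarcinoma by this age. Before the sections were cut, a pathologist examined the tissue, in DES also for adenocarcinoma, and blocks were then selected and cored to areas of interest. The paper describes cancer regions in DES section tissue, so DES and CO sections can also differ in tumor content. Its part in their differences was not tested.

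Immediate early genes are switched on within minutes of a stimulus because their promoters are already occupied by factors such as SRF and CREB, which need only to be phosphorylated and not to be made. FOS and JUN family proteins pair to form the transcription factor AP-1, and EGR1 is a zinc finger factor induced by the same growth factor and stress kinases. In the uterus estrogen induces Fos. Enzymatic dissociation of a tissue also induces these genes, and here the uteri were warmed in trypsin for the cell libraries whereas the sections were cut from frozen blocks, so that the genes were read in both preparations.

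The promoter windows of 4 members are shown because they hold the core of the cyclic AMP response element (TGACG), a site through which stress and growth signals reach immediate early genes, in the last 150 bases before the start of transcription. RefSeq windows on GRCm38.p6 (the mm10 assembly) were held for 7 of the 10 members, and Fosl1, Egr1 and Ier2 had no entry. The windows lie at chr12:85473740-85473889 on the plus strand for Fos, and on the minus strand at chr7:19310046-19310195 for Fosb, chr8:84978749-84978898 for Junb and chr1:191183334-191183483 for Atf3. The starts are those of RefSeq, and they need not be the ends of the gene spans given with the levels: that of Atf3 lies well inside its span and that of Jund before its span. Sequences run 5′ to 3′ on the strand of the gene, and capitals mark TGACG or its reverse complement CGTCA and the letters TATAAA.
Fos: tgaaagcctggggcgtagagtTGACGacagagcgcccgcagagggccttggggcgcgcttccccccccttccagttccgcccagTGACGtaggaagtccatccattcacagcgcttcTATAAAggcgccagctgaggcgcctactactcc
Fosb: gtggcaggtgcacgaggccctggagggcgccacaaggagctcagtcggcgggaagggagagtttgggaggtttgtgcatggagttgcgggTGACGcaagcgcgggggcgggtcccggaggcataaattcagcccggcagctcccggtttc
Junb: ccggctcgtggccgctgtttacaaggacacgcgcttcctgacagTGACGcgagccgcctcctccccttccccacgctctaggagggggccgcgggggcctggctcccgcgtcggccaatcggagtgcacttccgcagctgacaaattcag
Atf3: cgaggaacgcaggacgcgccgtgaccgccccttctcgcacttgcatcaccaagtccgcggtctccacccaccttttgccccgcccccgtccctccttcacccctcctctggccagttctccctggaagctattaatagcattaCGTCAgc
Fos held 2 such matches, from 129 to 125 and from 66 to 62 bases before its start, and a TATA box from 33 to 28 bases before it. Fosb held 1 match from 60 to 56 bases before its start and Junb 1 from 106 to 102, whereas in Atf3 the match lay on the other strand, 7 to 3 bases before the RefSeq start. The windows of Jun, Jund and Ier3 held no TGACG on either strand. Over 32851 promoter windows of this length, 13.3% held TGACG on either strand and 7.57% held TATAAA, while the AP-1 site TGACTCA, searched on either strand too, was in 2.84% and in none of the 7 member windows. Only these exact letters were searched, so near matches such as the TGACATCA in the Jun window were not counted. A match describes letters and is no evidence that a factor was bound.

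The CO cell library held 32387 cells and 353460067 unique molecular identifiers (UMIs), with a median of 6779 per cell, and the DES library 16312 cells and 288919190 UMIs, with a median of 10153.5. The sections held 1357 to 1834 spots and 9117099 to 12506177 UMIs, a spot being a small area of tissue that can hold several cells. Levels are given as counts per 1000000 UMIs (CPM) of summed cells or spots. Hemoglobin and other red cell marker genes took 95609.0 CPM of all CO cells but 25782.5 CPM of all DES cells, which lowers the other CPM values of the whole CO library. The 2 cell libraries shared 180 barcodes, 32 of them among cells to which the authors had given a cell type. With 1 cell library per treatment CO and DES cells could not be tested against each other, and intervals on cell values cover counting error only. The sections are the replicates, 1 mouse each.

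Most members stood far higher in dissociated cells than in intact tissue, and over whole libraries and sections Fosb, Fos and Egr1 showed the widest gaps of the 9 that could be tested. All 9 members that could be tested were higher in dissociated cells, against 21.3% of the 14790 genes tested, and their median log2 difference was 2.78 against 0.02 over all genes. Fosb, whose protein pairs with JUN proteins, was near the limit of detection in the sections but not in the cells. It passed the filter on low counts through the cells, so only a rise could be called for it. At the other end Ier2 and Ier3 were already well expressed in intact tissue.

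Fos (ENSMUSG00000021250, chr12:85473890-85477273), the founding AP-1 member, was at 943 CPM in all CO cells and 385 CPM in all DES cells. In the whole sections Fos was at 60.9 (CO A) and 10.2 (CO B) CPM after corn oil and at 19.9 (DES A) and 16.9 (DES B) CPM after DES. Both cell libraries lay above all sections, and CO A stood above the other sections. Fosb (chr7:19302696-19310051) was at 199 CPM in CO cells and 64.7 CPM in DES cells but at 1.12 and 0.634 CPM in the CO sections and 0.877 and 0.607 CPM in the DES sections, which rests on 14, 7, 8 and 6 UMIs. Its log2 difference between dissociated cells and sections was 7.65 ± 0.36 (SE), a 201-fold gap (edgeR quasi-likelihood test with Benjamini-Hochberg adjustment, adjusted p = 4.58e-04), and ranked 66 from the top of all genes tested. Fos differed 31.8-fold (log2 4.99 ± 0.66, edgeR adjusted p = 0.00399). Fosl1 (chr19:5447547-5455946), which encodes FRA1, a late FOS family member, was at 5.20 CPM in CO cells and 0.557 CPM in DES cells and between 0.110 and 0.607 CPM in the sections, where it rested on 1 to 6 UMIs. Its DES cells lay below DES B, and it was too low in the sections to be tested.

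The JUN genes differed less. Jun (chr4:95049034-95052222), the main partner of FOS, was at 406 CPM in CO cells and 293 CPM in DES cells, against 87.0 and 78.1 CPM in the CO sections and 97.2 and 66.7 CPM in the DES sections. Junb (chr8:84974484-84978718), which often tempers JUN activity, was at 444 and 276 CPM in CO and DES cells and at 45.9, 48.0, 126 and 113 CPM in CO A, CO B, DES A and DES B. Jund (chr8:70698949-70700616), the JUN member that resting cells express, was at 620 and 508 CPM in cells and at 225, 184, 296 and 275 CPM in the same sections. No section reached the lower of the cell libraries for any JUN gene. The gap was 6.86-fold for Junb, 5.72-fold for Jun and 3.18-fold for Jund (edgeR adjusted p = 0.00616, 0.00128 and 0.00405), so the member with the highest level in intact tissue among the JUN genes had the smallest gap.

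Egr1, a zinc finger activator of growth genes, was at 408 CPM in CO cells and 97.9 CPM in DES cells and at 8.64, 11.2, 15.9 and 8.60 CPM in CO A, CO B, DES A and DES B, a 27.4-fold gap (log2 4.77 ± 0.56, edgeR adjusted p = 0.00298). The size of the gap rested much on the CO library, with a log2 value of 3.51 for Egr1 without the CO cells and 5.79 without the DES cells. Atf3 (chr1:191170296-191218039), a stress-induced factor of the ATF family, was at 141 and 114 CPM in CO and DES cells and at 15.3, 16.0, 13.4 and 15.8 CPM in the sections, an 11.4-fold gap (log2 3.51 ± 0.15, edgeR adjusted p = 4.43e-04). Whole sections of both treatments overlapped for Atf3.

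Ier3 (chr17:35821684-35822923), a regulator of apoptosis, was at 645 CPM in CO cells and 149 CPM in DES cells, and at 327 and 246 CPM in the CO sections and 85.7 and 72.1 CPM in the DES sections. Cells and sections overlapped, because the DES cells lay below the CO sections, but within each treatment cells were above sections, and the fit with treatment as a term gave a 2.80-fold gap (edgeR adjusted p = 0.00384). Ier2 (chr8:84661331-84662852), a small nuclear protein of the early response, was at 180 and 130 CPM in CO and DES cells and at 96.9, 95.9, 145 and 142 CPM in the sections. Its gap was 1.80-fold (edgeR adjusted p = 0.0364), with the DES cells below the DES sections in CPM. The Ier2 call was lost with library sizes alone (log2 0.41, adjusted p = 0.234), with annotated cells alone (log2 0.75, adjusted p = 0.0594), when the CO cells were left out (log2 0.35, adjusted p = 0.220) and when any 1 section was left out (adjusted p = 0.0739 to 0.0903 in edgeR). The gap of Junb moved likewise, to log2 1.71 without the CO cells and 3.66 without the DES cells, that of Fosb to 6.95 without the CO cells and that of Fos to 5.80 without CO A. Dissociation, platform, capture chemistry, mice and cell makeup all differ between the assays and cannot be told apart.

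**Figure D1:**
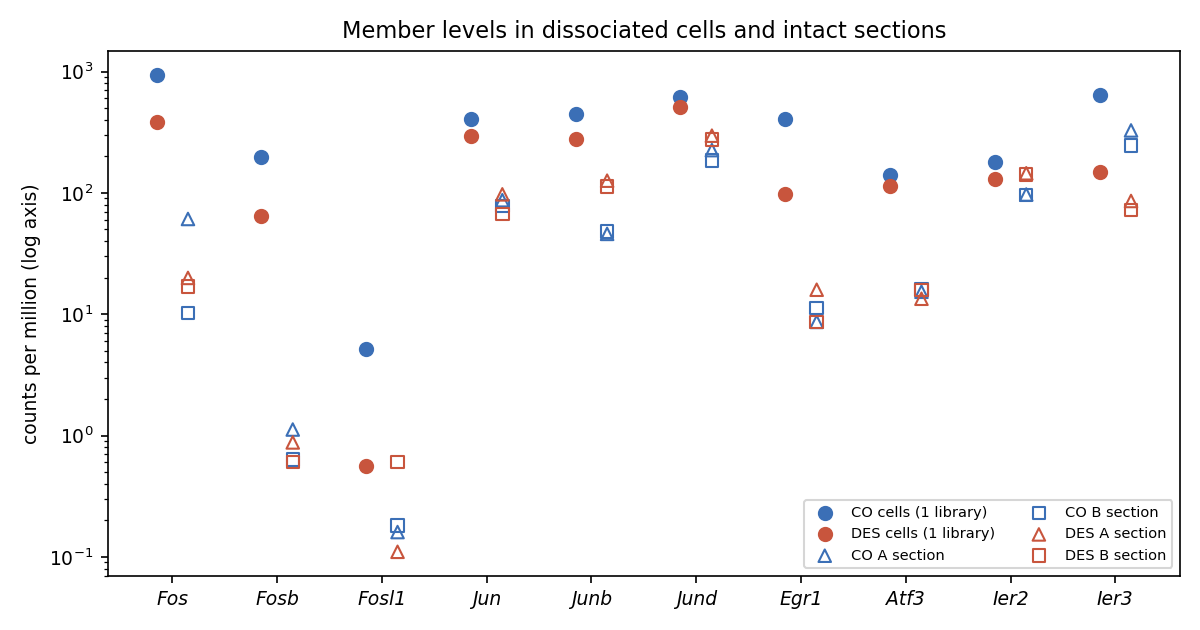
Levels of the 10 members in CPM on a log axis, in all cells of the CO and DES libraries and in the whole CO and DES sections, 1 point per library or section. Fosb runs from 0.607 to 1.12 in the sections to 64.7 and 199 in the cells, whereas Ier2 and Ier3 overlap between the assays.

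Over both treatments the gap was also present where both assays looked at epithelium. With cells annotated as epithelial set against epithelium-rich spots, the log2 difference was 7.65 for Fosb, 5.19 for Atf3, 5.02 for Egr1, 4.56 for Fos, 3.31 for Jun, 2.69 for Junb, 1.97 for Jund, 1.35 for Ier3 and 1.05 for Ier2. In DES alone it was not seen in CPM for Ier2, with or without the basal cells described below, nor for Ier3 without them. The remaining DES epithelial cells held Ier2 at 105 CPM, against 169 and 171 CPM in epithelium-rich DES spots. Ier3 was at 78.3 CPM against 114 and 89.2 CPM. The other members listed stayed above both DES sections, with Junb at 162 against 137 and 130 CPM. Other genes of the early response moved in the same direction more often than not. Of 38 other immediate early genes 24 were higher and 2 lower in dissociated cells, with a median log2 difference of 1.98, led by the neutrophil chemokines Cxcl2 (5.68 ± 1.35) and Cxcl1 (4.89 ± 1.18) and by Arc (4.10 ± 1.09), with Per1, a clock gene, lower at -0.63 ± 0.18 (edgeR adjusted p = 0.0212, 0.0223, 0.0303 and 0.0382). In CO A, CO B, DES A and DES B, Cxcl2 was at 0.160, 0.181, 9.65 and 0.709 CPM. Arc was at 0.240, 0.0906, 1.10 and 0.304 CPM in these sections. Of the 38, 35 could be tested between whole sections alone. The others passed the filter on low counts through the cells, so only a rise could be called for them. Of 15 heat shock genes 7 were higher and 0 lower, with a median of 0.80, among them the chaperones Hsp90aa1 (1.63 ± 0.26), Hspa1a (1.45 ± 0.27) and Hsp90ab1 (1.40 ± 0.19). The kinases and factors upstream were split, with 4 higher and 7 lower of 19, where 21.3% of all genes were higher and 19.1% lower. Among them Mapk8, the stress kinase JNK1, was at 1.55 ± 0.16 and Mkl1, an SRF coactivator, at -1.79 ± 0.20. The other bZIP partners gave 3 higher and 2 lower of 11, near the shares over all genes, and of 10 housekeeping genes Actb was the 1 called, at 0.84 ± 0.19.

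Of the dissociated cells, 20134 in CO and 6611 in DES had no cell type from the authors and had not passed the quality filter of the study, and these summed to 3539.5 and 2631.0 CPM of members. They are part of the levels over all cells. Every annotated type carried members, and among the annotated types the myeloid cells carried the most. The 10 members summed to 6100.2 CPM in the 67 CO myeloid cells and to 10061.2 CPM in the 228 DES myeloid cells. In CO they were followed by endothelial cells at 5578.7 CPM (341 cells), epithelial cells at 5128.5 (2583), pericytes at 4584.2 (75), stromal cells at 4000.0 (1326), mesothelial cells at 3899.5 (6866), lymphocytes at 3808.7 (423) and myocytes at 2287.0 (85). The lowest were the cells named for Ctla2a, at 1374.3 CPM (465 cells), and the 22 cells named Stmn1-hi, at 964.0 CPM. In DES the lymphocytes were next at 3910.8 CPM (239 cells), then the Lyz2-high myeloid cells at 2480.8 (136), epithelial cells at 1850.5 (5255) and mesothelial cells at 1762.2 (3837). The libraries hold 1 DES stromal and 5 DES endothelial cells, too few for a level. With a single library each, the order of neighbouring types has no replicate behind it.

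The members did not share one order of cell types. Junb was highest in myeloid cells, at 1579.0 CPM in CO and 2952.2 CPM in DES, and in cells labelled lymphocytes, at 920 and 1665.0 CPM. Atf3 was also led by the myeloid cells, at 600 CPM in CO and 1203.7 CPM in DES, against 43.8 CPM in CO stromal cells. Ier3 was instead led by CO epithelial cells at 1066.6 CPM and CO endothelial cells at 956 CPM, and Egr1 by CO stromal cells at 708 CPM. Jund was the most even member, from 345 CPM in DES Lyz2-high myeloid cells to 998 CPM in CO lymphocytes among types of at least 50 cells. Cells labelled lymphocytes held more UMIs of 6 myeloid marker genes (3508.9 CPM in CO and 9027.4 CPM in DES) than of 6 lymphocyte marker genes (1613.2 and 1413.9 CPM). Cells labelled mesothelial held 21125.8 and 21755.3 CPM of 6 stromal marker genes against 3114.6 and 3355.1 CPM of 6 mesothelial ones. Those labels are the authors' names and were not borne out by these sums alone. The lists hold different genes, so the larger sum does not decide what the cells are. When the paper clustered DES mesothelial cells with CO mesothelial and stromal cells, it found no DES subset with stromal traits. The label epithelial was met by 8240.2 CPM in CO and 7702.5 CPM in DES of 7 epithelial marker genes.

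**Figure D2:**
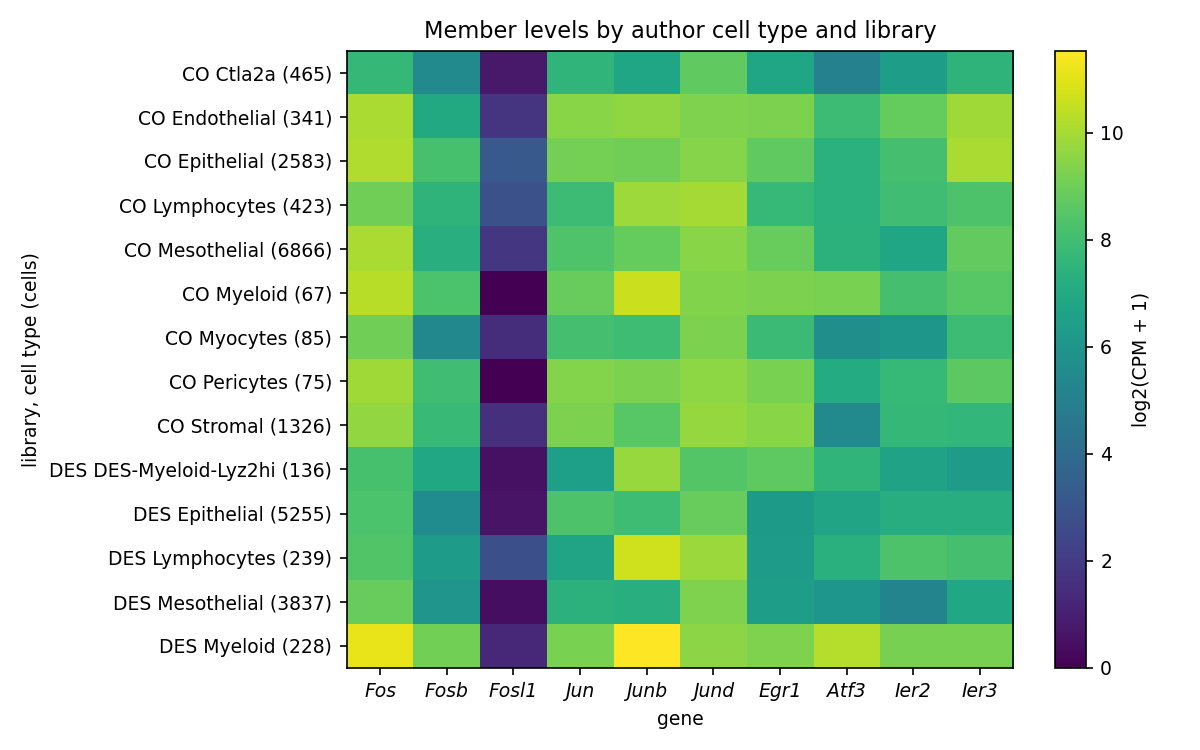
Level of each member (columns) in each cell type and library (rows, types of at least 50 cells, number of cells in brackets), as a color scale of log2(CPM + 1). Junb and Atf3 are brightest in the DES myeloid row, at 2952.2 and 1203.7 CPM, and Ier3 in the CO epithelial row, at 1066.6 CPM.

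The genes whose levels followed the members' mean most closely over 14 cell type and library groups were Ppp1r15a (Pearson r = 0.92), which relieves the block on translation after stress, Mafk (0.91), Zfp36 (0.91), which destabilizes early response mRNAs, and Btg2 (0.89), with Pvr, Mapk6, Isg15, Hspa8, Socs3 and Irf1 between 0.81 and 0.86. These groups share libraries and depth, and the values are a description. The members themselves ran from 0.37 for the scarce Fosl1 to 0.89 for Fos.

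Within the epithelium the members divided the clusters of the authors into high and low ones. The clusters had been formed from the same counts, so the values that follow describe them. In the CO library, cluster 3 summed to 10356.4 CPM of members (204 cells), cluster 7 to 10102.0 (135), cluster 0 to 8495.1 (482), cluster 14 to 7879.1 (28), cluster 11 to 7849.8 (97) and cluster 13 to 7096.7 (62). Clusters 12, 5 and 4 lay between, at 5404.8, 4818.3 and 3819.9 CPM. The remaining clusters, 9, 8, 6, 10, 2 and 1, ran from 2527.4 down to 1585.3 CPM. In the DES library 1 cluster stood apart. Cluster 9 (190 cells) summed to 8544.1 CPM and the other 15 clusters to between 722 and 1331.7 CPM.

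Gene by gene the same division was visible. Fos was at 2081.1 CPM in CO cluster 0, 2140.7 in cluster 3 and 2309.8 in cluster 7, but at 182 CPM in cluster 1 and 205 in cluster 2. Fosb was at 1032.6 CPM in CO cluster 7 and 24.2 CPM in cluster 1. In the DES library Fos was at 2519.3 CPM in cluster 9 and between 28.2 and 282 CPM in the others, and Fosb was at 429 CPM against 2.87 to 43.3 CPM. Atf3, at 860 CPM in CO cluster 3 and 11.3 CPM in cluster 1, and at 414 CPM in DES cluster 9 against 3.45 to 31.8 CPM elsewhere in DES, followed the FOS genes. Jund moved least, from 381 CPM in CO cluster 8 to 1110.8 in cluster 3, and from 333 to 508 CPM among the low DES clusters against 1133.0 in cluster 9. The low DES clusters are in the same library as cluster 9. How much of their levels came from RNA released by other cells was not measured.

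Ier3 kept a difference between the treatments on both sides of this division. In the low CO clusters 1, 2, 6, 8, 9 and 10, Ier3 was at 616, 597, 596, 714, 691 and 617 CPM, while in the 15 low DES clusters it was between 22.9 and 96.9 CPM. In the high clusters it was at 1687.5, 1536.4 and 1888.2 CPM in CO clusters 0, 3 and 7 and at 461 CPM in DES cluster 9. Each of the 16 DES clusters was below every CO cluster, the lowest of which was at 596 CPM. The exception among DES cells was integrated cluster 8, described next, where Ier3 was at 1778.5 CPM. Jun did not behave in this way, at 56.9, 61.5, 140, 166, 200 and 101 CPM in those low CO clusters and between 74.3 and 186 CPM in the low DES clusters.

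DES epithelium also holds basal cells, a cell type foreign to the normal uterus, which the authors had placed in clusters 8 and 11 of their integrated clustering, and these 2 clusters were far apart in their member levels. Basal markers (Krt14, Krt5 and Trp63) summed to 5868.5 CPM in integrated cluster 8 and 4960.7 CPM in integrated cluster 11. The members summed to 16456.7 CPM in cluster 8 (351 cells) and to 1396.9 CPM in cluster 11 (257 cells). Fos was at 2814.3 and 123 CPM, Jun at 3647.9 and 319 CPM, Junb at 2413.6 and 223 CPM, Atf3 at 1979.3 and 35.4 CPM and Ier3 at 1778.5 and 60.9 CPM in clusters 8 and 11. Nearly all of these basal cells had been given no place in the 16 DES clusters. Only 3 cells of integrated cluster 8 were in DES cluster 9, so the high basal cells and the high cells of cluster 9 were, apart from these 3, different cells.

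**Figure D3:**
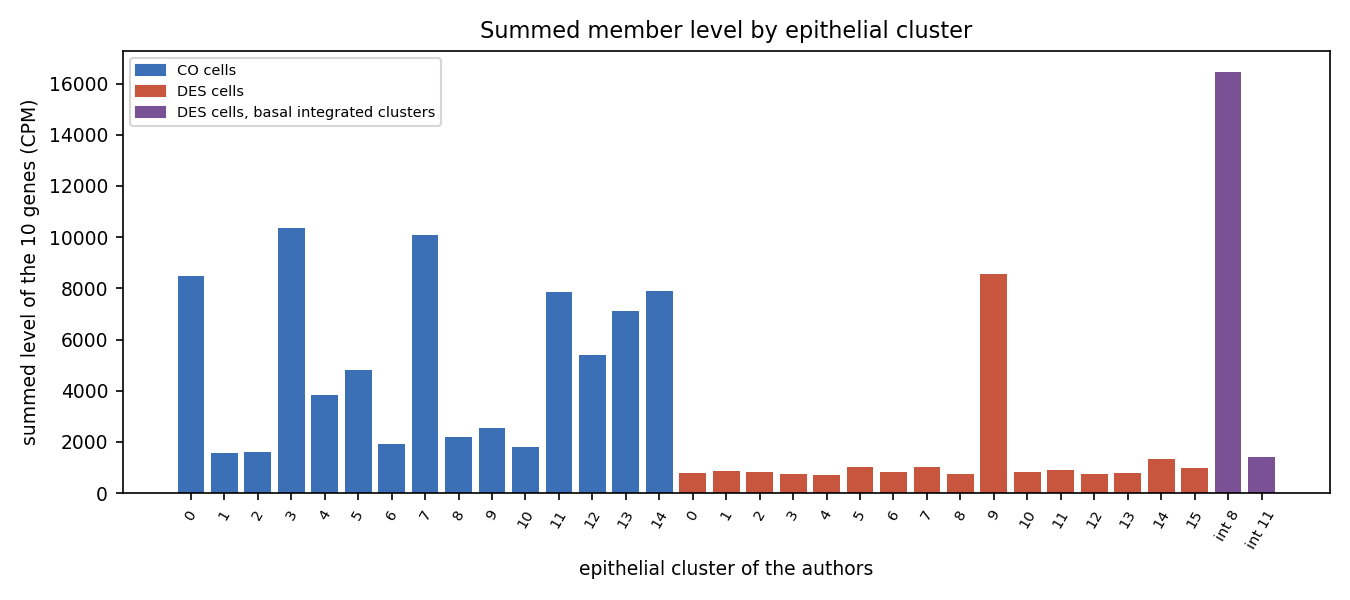
Summed level of the 10 members (bars, CPM) in each CO and DES epithelial cluster and in integrated basal clusters 8 and 11 of the DES library. DES cluster 9 at 8544.1 and integrated cluster 8 at 16456.7 stand above the other DES clusters, none of which passes 1396.9.

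DES cluster 9 lay within the range of depth of the other DES clusters. The median UMIs per cell were 23259.0 in DES cluster 9 and 6343.5 to 65030.5 in the other DES clusters. The median mitochondrial share was 7.90% in cluster 9 and 8.89 to 13.2% in the others, and 6.54 and 6.56% in integrated clusters 8 and 11. The 15 heat shock genes summed to 7585.3 CPM in DES cluster 9 and 4185.4 to 5767.5 CPM in the other DES clusters, to 9547.4 and 6065.3 CPM in integrated clusters 8 and 11, and to 7507.3 and 6164.6 CPM in CO clusters 0 and 1. The 10 housekeeping genes summed to 13411.8 CPM in DES cluster 9 and to 11487.8 to 13785.3 CPM in the others. The part of dissociation stress or of position in the tissue in these clusters was not tested.

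Within the epithelium the members were detected together in the same cells. After each cell was thinned to 3000 UMIs, at least 5 of the 10 members were seen in 98.0% of cells of CO cluster 3 and 7.79% of cluster 1, in 93.2% of DES cluster 9 and 0.898% of DES cluster 0, and in 96.0 and 9.80% of integrated clusters 8 and 11. Without thinning these shares were 100 and 94.0%, 100 and 62.9%, and 98.6 and 49.8%. In CO epithelial cells Egr1 was seen in 66.1% of the 1647 thinned cells with a Fos UMI and in 12.9% of the 915 without, and Fosb in 52.2 and 6.45%. In DES epithelial cells Egr1 was seen in 45.0% of 1161 cells with Fos and 1.93% of 4040 without, and Atf3 in 40.8 and 2.08%. This was not so in every cell type. In CO cells named for Ctla2a, Fosb was seen in 12.7% of 197 cells with Fos and 15.7% of 242 without, and Egr1 in 26.4 and 27.7%. In DES lymphocytes Egr1 was seen in 13.3% of 83 cells with Fos and 12.3% of 130 without and Jun in 12.0 and 15.4%, while Atf3, in 38.6 and 22.3%, was seen more often with Fos. No uterine cell type is known to lack these genes, so the share due to free RNA was not measured. Over the 30 epithelial clusters of at least 50 cells, the genes most like the members were Zfp36 and Nr4a1 (Pearson r = 0.99), Slc25a25 and Klf6 (0.98), and Ppp1r15a, Egr2, Egr3, Dusp5, Maff and Cyr61 (0.97), over clusters that share libraries.

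Between the treatments, dissociated DES epithelial cells held less of the members than dissociated CO epithelial cells. Of the 9 members at 20 CPM or more, 5 were more than 2-fold lower in DES, against 7.62% of 6196 genes, and 0 were more than 2-fold higher, against 5.60%. Fos was at 1132.7 CPM in CO and 302 CPM in DES, a ratio of 0.266 (95% counting interval 0.263 to 0.269), and Fosb at 285 and 47.0 CPM, a ratio of 0.165 (0.161 to 0.169). Egr1 was at 424 and 76.8 CPM (0.181) and Ier3 at 1066.6 and 143 CPM, the lowest ratio of the 9 at 0.134 (0.132 to 0.136). Junb was at 524 and 249 CPM (0.476), Ier2 at 276 and 146 (0.529), Jun at 561 and 315 (0.562), Atf3 at 166 and 106 (0.641) and Jund at 685 and 465 (0.678). Fosl1, below 20 CPM in both, was at 8.46 and 0.539 CPM. In cells thinned to 3000 UMIs, Fos was seen in 64.3% of CO epithelial cells (exact Clopper-Pearson 95% interval 62.4 to 66.1%) and 22.3% of DES epithelial cells (21.2 to 23.5%). Ier3 was seen in 82.1% (80.5 to 83.6%) and 20.7% (19.6 to 21.9%). Without thinning the shares for Ier3 were 98.9 and 62.8%, and those for Fos nearly all CO cells and 59.2% of DES cells. These values compare 1 library with 1 library. They also compare different groups of cells, since of the 21 integrated epithelial clusters 17 held cells of a single library, and the 4 others held 84 of the 2583 CO and 1242 of the 5255 DES epithelial cells.

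The DES epithelial cells include the basal cells of integrated clusters 8 and 11, which hold none of the CO epithelial cells. Without them, a choice made after seeing the data, 4647 DES cells remained, the summed member level was 1265.6 CPM against 5128.5 CPM in CO, and 8 of 9 members were more than 2-fold lower in DES, against 495 of 6184 genes (8.0%). Atf3 then had a ratio of 0.189 (95% counting interval 0.183 to 0.195), Jun 0.320 (0.315 to 0.325), Junb 0.308 and Ier2 0.383. Ier3 was at 0.0734, Egr1 at 0.0977, Fosb at 0.106 and Fos at 0.180, and Jund, at 0.634, was the member that did not pass.

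The authors' mesothelial cells showed the same direction. There 7 of 9 members were more than 2-fold lower in DES, against 2.11% of 6413 genes, and 0 were higher, against 1.75%. Egr1 went from 467 to 84.9 CPM (ratio 0.182), Ier3 from 436 to 117 (0.268), Ier2 from 111 to 36.1 (0.325), Junb from 452 to 149 (0.329), Atf3 from 167 to 65.7 (0.393), Fos from 1079.7 to 455 (0.421) and Fosb from 147 to 62.9 (0.429). Jun at 0.504 and Jund at 0.886 did not pass the 2-fold line. In lymphocytes Egr1 (0.399), Jun (0.437) and Fosb (0.452) were more than 2-fold lower, against 3.67% of 6107 genes, while Junb had a ratio of 1.81. The myeloid markers in cells of this label, given above, were also higher in DES, and their part in these ratios was not tested. Myeloid cells went the other way, with Ier2 (ratio 2.05) and Atf3 (from 600 to 1203.7 CPM) past 2-fold higher in DES, against 4.15% of 6387 genes, and Junb (1.87) and Fos (1.86) just short of it, where the median gene had a log2 ratio of -0.37. This depended on which cells were taken as myeloid. With the 136 Lyz2-high myeloid cells, found in the DES library alone, added to the DES side after seeing the data, the members summed to 6103.7 CPM in DES and 6100.2 CPM in CO. No member was then past 2-fold higher, against 5.46% of 6406 genes, with ratios of 1.12 for Atf3, 1.17 for Ier2, 1.18 for Junb and 1.01 for Fos.

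Intact sections gave another picture of the treatments. Over whole sections only Junb and Ier3 of the 8 members tested passed the threshold, in opposite directions, against 5.30% of the 14098 genes tested. Junb was at 45.9 and 48.0 CPM in the CO sections and 126 and 113 CPM in the DES sections, 2.20-fold higher in DES (log2 1.14 ± 0.16, edgeR adjusted p = 0.0306). Ier3 was at 327 and 246 CPM in CO and 85.7 and 72.1 CPM in DES, 4.21-fold lower in DES (log2 -2.08 ± 0.23, edgeR adjusted p = 0.0219). The CO and DES sections did not overlap for either gene. Each call was lost when DES A (edgeR adjusted p = 0.293 for Junb and 0.147 for Ier3) or DES B (0.255 and 0.173) was left out, with log2 values from 1.08 to 1.17 and from -2.19 to -2.01. With 2 sections against 2, an exact permutation test cannot go below p = 0.333, so the calls rest on the spread edgeR shares among genes.

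For the other members the sections of a treatment overlapped or differed by little. Jund, at 225 and 184 CPM in CO and 296 and 275 CPM in DES, had a log2 difference of 0.27 ± 0.19 (edgeR adjusted p = 0.454), and Ier2, at 96.9 and 95.9 against 145 and 142 CPM, one of 0.37 ± 0.15 (edgeR adjusted p = 0.233), both without overlap of the sections. Jun, Egr1 and Atf3 overlapped, with log2 differences of -0.23, 0.09 and -0.31. Fos depended on which CO section was taken. Its log2 difference was -1.18 ± 0.82 (edgeR adjusted p = 0.449), but -1.96 without CO B and 0.67 without CO A, since CO A held 60.9 CPM and CO B 10.2. With a lone CO section left, the spread between CO mice was not measured. Section and mouse cannot be told apart here, and the CO B section had a fold in the tissue. The median over the 8 members was -0.07, against -0.01 over all genes. In bulk sums such as these, fewer cells of a type and less RNA per cell cannot be told apart, and muscle marker genes summed to 14758.3 and 16168.7 CPM in the CO sections but 3562.0 and 4036.3 CPM in the DES sections, so the treatments were also compared within regions. Basal markers summed to 3.36 and 160 CPM in the whole CO sections and 9526.4 and 5644.3 CPM in the DES sections, and myeloid markers to 381 and 692 CPM against 2184.0 and 1303.8 CPM, and their part in the differences of Junb and Ier3 was not tested.

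Regions were taken as the spots richest in epithelial, muscle or stromal marker genes, up to the top 20% of each section, and no member was a marker. In epithelium-rich spots Ier3 remained the called member, 1 of 8 tested against 6.05% of 11944 genes. It was at 524 and 451 CPM in the CO sections and at 114 and 89.2 CPM in the DES sections, 5.97-fold lower in DES (log2 -2.58 ± 0.23, edgeR adjusted p = 0.0138). Without DES A or DES B the adjusted p was 0.0735 or 0.0901 in edgeR, at log2 -2.73 and -2.44. Junb was at 55.8 and 61.1 CPM in CO and 137 and 130 CPM in DES (log2 0.88 ± 0.18, edgeR adjusted p = 0.0520), just short of the threshold, and passed it with DESeq2 (adjusted p = 0.0310), with library sizes alone (0.0291) and without the filter on low counts (0.0434). Atf3 was at 1.04 and 3.45 CPM in CO and 9.87 and 16.0 CPM in DES, a log2 difference of 2.24 ± 0.62 (edgeR adjusted p = 0.0976). It was 3.27 without CO B, with CO A as the lone CO section. CO A was the CO section with less Atf3, so leaving out CO B enlarged the difference. Jund, at 185 and 145 against 290 and 267 CPM, and Ier2, at 114 and 133 against 169 and 171 CPM, were also without overlap but not called (log2 0.44 and 0.16).

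Fos in epithelium-rich spots was at 91.7 (CO A), 16.3 (CO B), 26.0 (DES A) and 21.8 (DES B) CPM, so that the DES sections lay between the CO sections (log2 -1.51 ± 0.79, edgeR adjusted p = 0.297). Without CO B the log2 difference was -2.27 and without CO A it was 0.26, each with a lone CO section and no measured spread in CO. Jun was at 47.4 and 55.7 CPM in CO and at 53.5 CPM in DES B, with DES A above all of these, and Egr1 was at 5.01 and 13.3 CPM in CO and 10.2 and 7.49 CPM in DES, both with overlap. Fosb was at 0.493 to 1.65 CPM, too low to test. Basal markers in these spots summed to 9236.1 and 5347.4 CPM in DES and 3.97 and 136 CPM in CO, and 6 myeloid markers to 1988.2 and 1019.6 CPM against 235 and 276 CPM, and their part in the differences of Ier3, Junb and Atf3 was not tested.

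**Figure D4:**
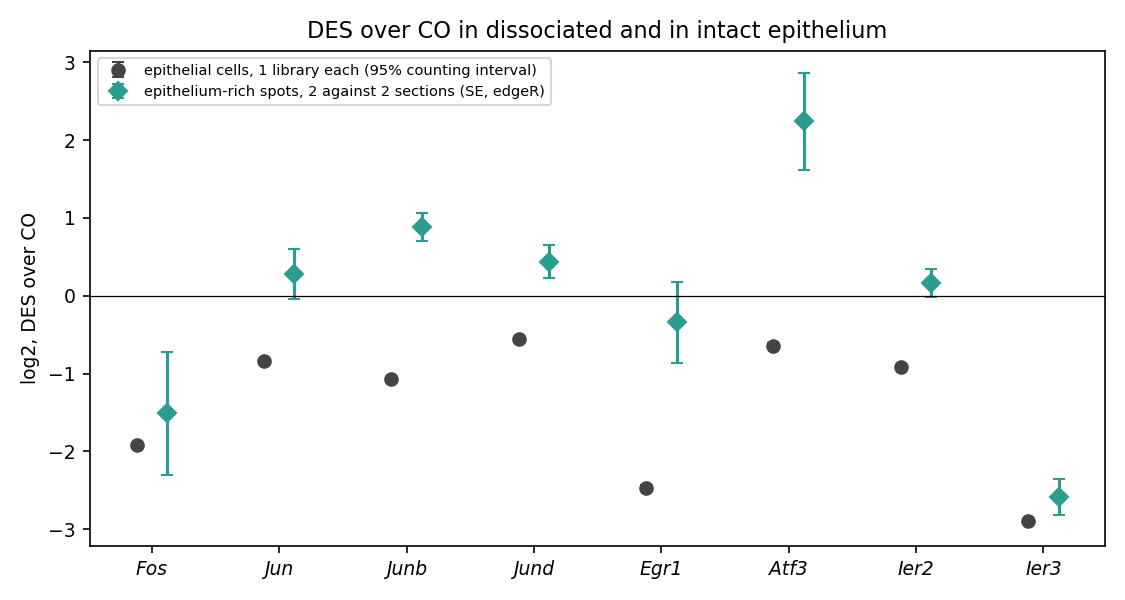
Log2 ratio of DES over CO for 8 members in dissociated epithelial cells (CPM of 1 library over 1 library, bars are 95% counting intervals) and in epithelium-rich spots (edgeR estimate, bars are its SE, 2 sections against 2). Ier3 is below 0 in both, whereas Junb, Jund, Ier2, Jun and Atf3 are below 0 in the cells and above 0 in the spots, where none of the 5 was called and Jun turned sign when 1 section was left out.

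Set side by side, Ier3 was lower in DES in both preparations of epithelium, and it was the one member called in the spots. Values in cells are plain ratios of CPM, and values in spots are edgeR estimates that also rescale the sections. The 2 are therefore not on the same measure, which matters most for small values. Log2 values for Ier3 were -2.90 in cells and -2.58 in spots. Junb was at -1.07 in cells and 0.88 in spots, Jund at -0.56 and 0.44, Ier2 at -0.92 and 0.16, Jun at -0.83 and 0.28, and Atf3 at -0.64 and 2.24. Egr1 was at -2.46 and -0.34 and Fos at -1.91 and -1.51. In the spots the signs of Fos, Egr1 and Jun turned when 1 section was left out, and the value of Ier2 was below its SE of 0.18. Without the basal cells the values in cells were -2.40 for Atf3, -1.70 for Junb and -1.64 for Jun. The difference between the assays in the effect of DES was not tested, since each treatment had a single cell library.

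In muscle-rich spots none of the 8 members tested was called by edgeR or DESeq2, against 3.90% of 10560 genes, of which 1820 had an unadjusted p under 0.05. Members with an unadjusted p under 0.05 were Junb, Atf3 and Jun. Junb was at 20.4 and 20.6 CPM in CO and 54.9 and 56.2 CPM in DES (log2 1.19 ± 0.28, edgeR adjusted p = 0.0571). Atf3 was at 53.0 and 55.0 CPM in CO and 12.8 and 32.1 CPM in DES (log2 -1.46 ± 0.40, edgeR adjusted p = 0.0950). Without the filter on low counts both passed the threshold (edgeR adjusted p = 0.0187 for Junb and 9.23e-04 for Atf3). Jun was at 170 and 133 CPM in CO and 132 and 99.8 CPM in DES (log2 -0.64 ± 0.26, edgeR adjusted p = 0.250). The rest gave log2 values of 0.98 ± 0.63 for Egr1, 0.63 ± 0.28 for Ier2, 0.21 ± 0.22 for Jund, 0.19 ± 0.73 for Fos and -0.66 ± 0.31 for Ier3.

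In stroma-rich spots again none of 8 was called by edgeR or DESeq2, against 2.69% of 10102 genes, of which 1518 had an unadjusted p under 0.05, as had Ier3 and Junb. Ier3 was at 148 and 77.8 CPM in CO and 51.5 and 57.3 CPM in DES (log2 -1.22 ± 0.35, edgeR adjusted p = 0.136) and Junb at 38.4 and 47.7 against 92.4 and 90.9 CPM (log2 0.91 ± 0.28, edgeR adjusted p = 0.153), neither with overlap. Without CO B, with CO A as the lone CO section, the log2 values were -1.60 for Ier3, 1.09 for Junb and -1.71 for Fos. CO A was the CO section further from the DES sections for each of these genes, so leaving out CO B enlarged each difference. With all sections Fos was at -0.96 ± 0.72, Jun at -0.50 ± 0.26, Egr1 at 0.54 ± 0.38, Jund at 0.43 ± 0.26, Atf3 at 0.15 ± 0.39 and Ier2 at 0.04 ± 0.30 on the log2 scale. Basal markers in these spots summed to 6777.4 and 3528.1 CPM in DES and 1.75 and 34.3 CPM in CO, and muscle markers to 3473.8 and 5480.3 CPM against 17544.4 and 20815.3 CPM, and their part in the differences was not tested. The median over the members was 0.22, 0.20 and 0.09 in epithelium-rich, muscle-rich and stroma-rich spots, against -0.02, 0.00 and -0.01 over all genes.

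Layers of the uterus differed in their early response genes without any dissociation. In the CO sections 7 of 8 members differed between epithelium-rich and muscle-rich spots, in a comparison where 52.3% of 12519 genes did. Ier3 was 7.69-fold higher in epithelium (524 and 451 CPM against 68.4 and 46.1 CPM), Fos 4.84-fold (91.7 and 16.3 against 15.4 and 3.93), Ier2 2.55-fold (114 and 133 against 44.0 and 41.7) and Junb 2.54-fold (55.8 and 61.1 against 20.4 and 20.6). The other way, Atf3 was 27.9-fold higher in muscle, at 53.0 and 55.0 CPM against 1.04 and 3.45 CPM in epithelium (log2 -4.80 ± 0.37, edgeR adjusted p = 4.64e-06), with log2 values of -4.20 without CO A and -5.70 without CO B. Jun was 3.29-fold higher in muscle (170 and 133 against 47.4 and 55.7 CPM) and Jund 2.28-fold (355 and 312 against 185 and 145 CPM). The adjusted p of these in edgeR ran from 3.39e-06 for Ier3 to 4.29e-04 for Junb, and Egr1 did not differ past the threshold (log2 0.05 ± 0.46).

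In the DES sections 5 of 8 members differed between these layers, against 32.9% of genes. Junb, Ier3 and Ier2 were again higher in epithelium, at log2 1.09, 1.05 and 0.96 (edgeR adjusted p = 0.00262, 0.00770 and 0.00598), and Jund and Jun lower, at -0.89 and -0.80 (edgeR adjusted p = 0.00426 and 0.0207), with the sections overlapping for Jun. Atf3 was at 9.87 and 16.0 CPM in epithelium-rich and 12.8 and 32.1 CPM in muscle-rich DES spots (log2 -0.94 ± 0.38, edgeR adjusted p = 0.0829). Fos, at 0.72 ± 0.39, and Egr1, at -1.05 ± 0.48, were not called (edgeR adjusted p = 0.189 and 0.126). All 5 calls were lost without DES A in the edgeR fit (adjusted p = 0.0631 for Junb, 0.246 for Ier3, 0.188 for Ier2, 0.0890 for Jund and 0.0629 for Jun), and those of Jund (0.122) and Jun (0.389) also without DES B.

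The contrast between the layers itself changed with DES for 2 of the 8 members, against 6.26% of genes. For Atf3 the log2 ratio of epithelium to muscle was 3.86 ± 0.53 higher in DES than in CO, a 14.5-fold change (edgeR adjusted p = 0.00530) that ranked 94 from the top of 12519 genes. Neither of the differences of Atf3 between DES and CO within a layer passed the threshold by itself (log2 2.24 in epithelium-rich and -1.46 in muscle-rich spots). The CO epithelium-rich values rest on 5 and 14 UMIs of Atf3, and the change was 3.24 on the log2 scale without CO A and 4.68 without CO B. In muscle-rich DES spots Atf3 was at 12.8 CPM on 10 UMIs in DES A and at 32.1 CPM on 36 UMIs in DES B. For Ier3 the ratio was 3.70-fold smaller in DES (log2 -1.89 ± 0.32, edgeR adjusted p = 0.0104). The Ier3 change fell short of the threshold without DES B (log2 -1.48, edgeR adjusted p = 0.130) and with the top 10% of spots (-1.26, 0.0978). Fos (-1.55 ± 0.55) and Jun (0.92 ± 0.30) did not pass (edgeR adjusted p = 0.132 and 0.113), nor did Egr1 (-1.10 ± 0.66), Ier2 (-0.40 ± 0.29), Jund (0.30 ± 0.25) and Junb (-0.25 ± 0.29). Muscle-rich spots held 53432.1 and 55435.6 CPM of muscle markers in CO but 28228.5 and 22664.4 CPM in DES, and epithelial markers there were at 588 and 603 CPM in CO and 1231.5 and 1841.4 CPM in DES. Basal markers in muscle-rich spots summed to 1.36 and 8.35 CPM in CO and 2442.7 and 2365.5 CPM in DES, and myeloid markers to 368 and 722 CPM against 976 and 1211.2 CPM. The part of this mixing in the changes was not tested.

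**Figure D5:**
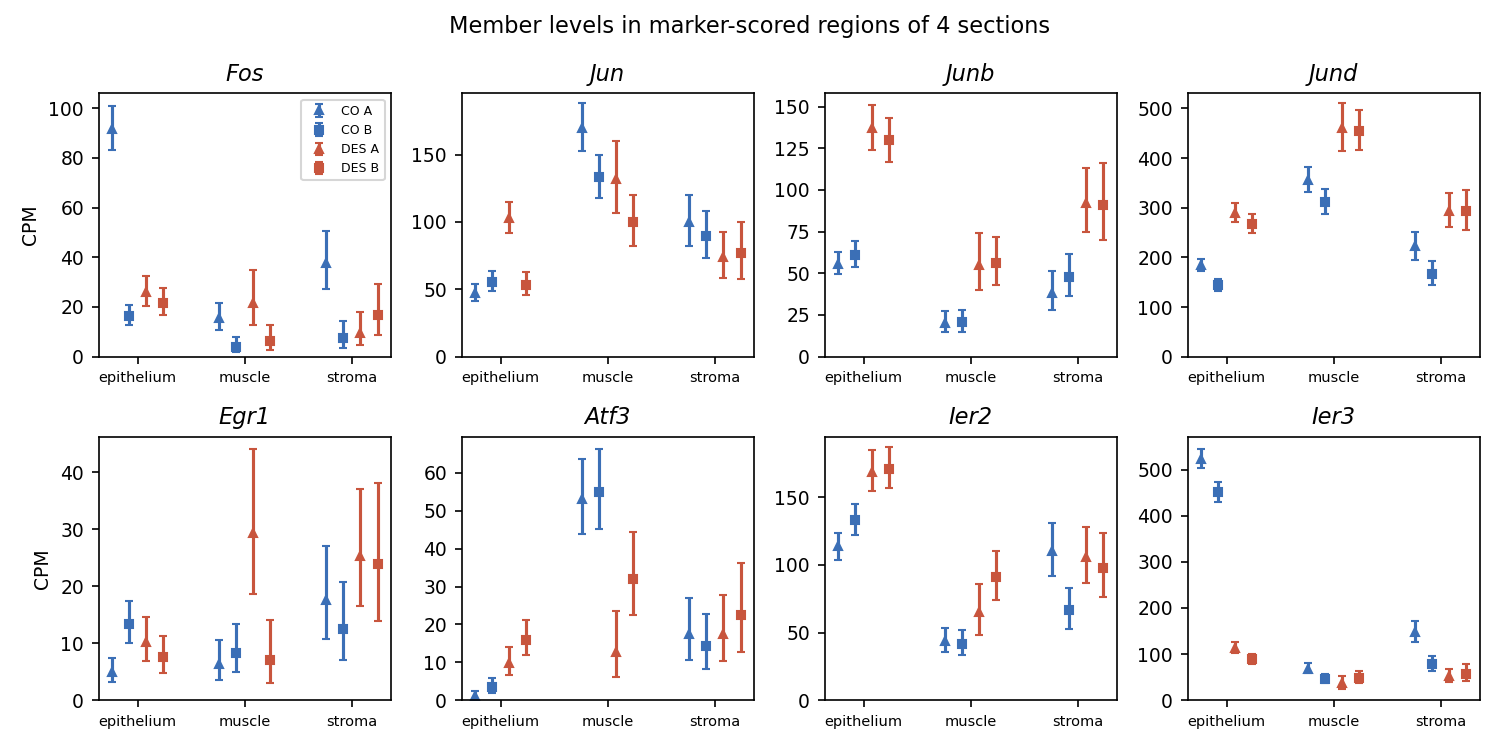
Levels of 8 members (CPM, 1 panel per gene, axes from 0) in epithelium-rich, muscle-rich and stroma-rich spots of the 2 CO and 2 DES sections, 1 point per section with its 95% counting interval. Atf3 is at 53.0 and 55.0 in CO muscle and at 1.04 and 3.45 in CO epithelium, and Ier3 is highest in CO epithelium at 451 and 524.

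Clusters of spots that the authors had called in each section showed how these levels varied within a layer. In CO A, Fos was highest in clusters 1 and 3, at 98.4 and 67.8 CPM, which held 8963.7 and 7093.6 CPM of epithelial markers, and lowest in cluster 2, at 12.5 CPM, which held 49917.4 CPM of muscle markers. No CO B cluster passed 15.5 CPM of Fos. In the DES sections the highest Fos values were in small clusters poor in epithelial markers, at 41.3 CPM in DES B cluster 9, which rests on 4 UMIs, and in DES A cluster 7, where 8 of 199873 UMIs were of Fos. Counts this low leave their rank open. DES B cluster 7, with 6816.7 CPM of epithelial markers, was at 33.7 CPM of Fos on 50 UMIs. DES A cluster 2, with 6437.7 CPM, was at 23.1 CPM on 56 UMIs. Atf3 was uneven among the clusters richest in muscle markers, at 59.2, 39.1, 23.5 and 18.5 CPM in CO A clusters 2, 6, 9 and 4, and at 72.3 and 9.41 CPM in CO B clusters 5 and 1. No UMI of Atf3 was found in CO B cluster 8, where a limit of 3 counts comes to 34.2 CPM. Clusters 1, 3 and 5 of CO A and cluster 2 of CO B, the richest in epithelial markers, held 0.901 to 2.71 CPM. CO A cluster 7 and CO B cluster 4, with 6077.5 and 5903.1 CPM of epithelial markers, held 16.6 and 6.58 CPM of Atf3, on 6 and 8 UMIs. CO A cluster 10, with 6271.9 CPM of these markers, held no UMI of Atf3, with a limit of 42.9 CPM. In DES the muscle clusters were at 11.2 CPM (DES A cluster 6) and 57.4 CPM (DES B cluster 8), and the highest value of DES A, 42.6 CPM, was in cluster 8, rich in epithelial markers.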

How the data were processed

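On mm10, the authors made the counts of UMIs for cells with Cell Ranger 3.0.1 and for Visium spots with Space Ranger 1.2.2, after bcl2fastq 2.20.0.422, as the submitters' processing notes name them, and removed doublets with scran. The deposited counts are not normalized. Cell types and clusters follow the authors' annotation, and 350 annotated cells without counts were left out. The total of each library and section is given with the results and sets their precision.

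UMIs were summed per cell group, section or region and given as CPM with exact Poisson 95% intervals, and ratios of DES to CO with exact binomial intervals. In cells, a ratio past 2-fold was called among genes at 20 CPM or more. Shares of cells were taken after thinning to 3000 UMIs, which left out 21 CO and 54 DES epithelial cells that were shallower. Regions were spots whose mean log2 score of epithelial, muscle or stromal markers was the highest of the 3 and in the top 20% of the section.

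Sums were compared with edgeR 4.0.16 (R 4.3.3; TMM, filterByExpr, quasi-likelihood test, Benjamini-Hochberg adjustment at 0.05 over all genes tested), with section as a block where regions were compared and treatment as a term where assays were. The test was checked on simulated data. The alternatives were DESeq2 1.42.0, edgeR with DESeq2 size factors, no filter, each section or library left out, mitochondrial and ribosomal protein genes left out, other spot limits, the authors' stromal clusters and other choices of cells and totals. Library sizes alone, DES epithelial cells without basal cells and DES myeloid cells with the Lyz2-high cells were added after the data were seen.

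The 10 members are followed in every comparison, and Fosb and Fosl1, under the filter on low counts, have no fitted value in the sections. From each other list, genes named are up to 3 rises and 3 falls among those called without overlap of the groups. Genes most alike are the 10 with the highest Pearson r to the mean z-score of the members' log2(CPM + 1). Members, lists and tests were chosen with earlier results of these data known.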

Additional observations from a re-analysis of the deposited data

Results flagged for a closer look

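The difference between DES and CO sections was not the same in epithelium-rich and muscle-rich spots for 2 members, by a test of the difference itself. For Atf3 the log2 ratio of epithelium-rich to muscle-rich spots was 3.86 higher in the DES sections than in the CO sections, with a log2 difference between DES and CO of 2.24 in epithelium-rich spots and -1.46 in muscle-rich spots. For Ier3 the change in that ratio was -1.89, with a DES effect of -2.58 in epithelium-rich and -0.66 in muscle-rich spots. No sample was flagged as far from its group, since no group held 4 samples.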

How the results depend on the processing

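No paired analysis was possible because the labels do not pair a CO section with a DES section. Of 731 refits of members, 655 kept the direction and the side of the threshold, 32 gained a call, 23 lost one and 21 changed sign, none of the last from a called value. DESeq2 called 1791 genes in whole sections (747 in edgeR), 1240 in epithelium-rich spots (723), 2672 between layers in DES (4122) and 522 for the difference of layers (784). No filter called 1262 in epithelium-rich, 1215 in muscle-rich (412) and 563 in stroma-rich spots (272), and 1419 for the difference. The top 10% of spots called 91 in muscle and 327 for the difference, the top 30% 628 and 1261, and the authors' stromal clusters 131. With 1 section left out, when the lone section is assumed to vary like the others, counts ran from 3 to 2819 in whole sections, 44 to 2711 in epithelium-rich, 44 to 1520 in muscle-rich and 242 to 1532 in stroma-rich spots, 1990 to 5485 between layers in DES, 329 to 1816 for the difference and 3383 to 6050 between assays.

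In cells, members more than 2-fold lower in DES epithelial cells numbered 8 in place of 5 without the basal cells, and members more than 2-fold higher in DES myeloid cells 0 in place of 2 with the Lyz2-high cells added. Members that changed sign were all uncalled in the edgeR fit of all sections. With 1 section left out, Fos ran from -1.96 to 0.67 in whole sections, -2.27 to 0.26 in epithelium-rich, -0.86 to 1.44 in muscle-rich and -1.71 to 0.57 in stroma-rich spots, with its lowest value without CO B and its highest without CO A except in muscle (lowest without DES A, and -0.48 without CO B). Egr1 ran from -0.39 to 0.43 in whole sections (-0.07 without CO A), -0.88 to 0.49 in epithelium-rich and -0.26 to 1.73 in muscle-rich spots, and -0.42 to 0.45 between CO layers. Jun ran from -0.22 to 0.65 in epithelium-rich spots, and in stroma-rich spots Atf3 from -0.06 to 0.40 and Ier2 from -0.27 to 0.42. Muscle-rich Fos was -0.01 with the top 10% and -0.26 with the top 30% of spots, and stroma-rich Atf3 -0.06 and -0.01. In the authors' stromal clusters Jun was 0.51, Egr1 -0.15 and Ier2 -0.25, and DESeq2 gave 0.00 for Egr1 between CO layers. Those clusters held 963 and 762 CPM of muscle markers in CO A and CO B but 3170.2 and 9543.5 CPM in DES A and DES B. The paper describes DES B as limited for telling clusters apart. The cause of the sign changes was not tested.

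With library sizes alone, an alternative chosen after seeing the data, the median of all genes was 0.20 in whole sections (-0.01 with TMM), 0.29 in epithelium-rich, 0.25 in muscle-rich and 0.17 in stroma-rich spots and -0.43 between assays. The split of higher and lower calls became 522 and 263 in whole sections (376 and 371 with TMM), 872 and 192 in epithelium-rich spots (444 and 279), 402 and 93 in muscle-rich spots (270 and 142) and 1789 and 4760 between assays (3145 and 2829). The depth of the sections limited Fosb and Fosl1, which rest on 14 UMIs or fewer in each.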

Other observations

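Outside the 10 members, few genes of the related lists were called between DES and CO sections. In whole sections edgeR called 1 of 35 other immediate early genes and 1 of 11 AP-1 partners, against 5.30% of all genes, and in epithelium-rich spots 2 of 10 AP-1 partners and 1 of 15 heat shock genes, against 6.05%. There 1 of 18 regulators (Rps6ka1) and 1 of 10 housekeeping genes (Pgk1) were lower in DES, and 0 of 32 other immediate early genes were called. In muscle-rich spots Klf4 was higher in DES (log2 2.06 ± 0.27) and Hspa1b lower (-1.09 ± 0.23), against 3.90% of genes called (edgeR adjusted p = 0.00801 and 0.0425). Jdp2, a repressor that pairs with JUN proteins, was higher in DES in epithelium-rich spots (135 and 146 CPM against 33.2 and 14.8 CPM), with log2 differences of 2.22 ± 0.41 there, 1.86 ± 0.36 in muscle-rich and 1.85 ± 0.38 in stroma-rich spots (edgeR adjusted p = 0.0461, 0.0305 and 0.0484). Batf, another AP-1 partner best known in immune cells, was at 14.8 and 13.6 CPM against 3.34 and 2.47 CPM in epithelium-rich spots (log2 1.96 ± 0.36, edgeR adjusted p = 0.0458). Sgk1, a serum-induced kinase, was at 239 and 258 CPM in whole DES sections against 62.9 and 74.9 CPM in CO (log2 1.65 ± 0.18, edgeR adjusted p = 0.0219), and Maf was lower, at 22.6 and 18.6 against 42.9 and 67.7 CPM (-1.63 ± 0.26, edgeR adjusted p = 0.0402). Basal markers in epithelium-rich spots were at 9236.1 and 5347.4 CPM in DES against 3.97 and 136 in CO, and myeloid markers at 1988.2 and 1019.6 against 235 and 276. Both were also higher in whole DES sections. Muscle-rich spots held 28228.5 and 22664.4 CPM of muscle markers in DES against 53432.1 and 55435.6 CPM in CO. Epithelial markers there were at 1231.5 and 1841.4 CPM in DES against 588 and 603 CPM in CO. Basal markers were also higher in muscle-rich and stroma-rich DES spots, as given above. In the CO sections Klf4 was 16.4-fold higher in epithelium-rich than in muscle-rich spots. The part of all these markers in these differences was not tested. Refits with a section left out covered the members only, so the hold of these calls is not known.

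Some genes of the same lists also changed their contrast between layers. The small heat shock gene Hspb1 was at 651 and 363 CPM in DES epithelium-rich spots and 38.8 and 68.0 CPM in CO, and its ratio of epithelium to muscle was 22.1-fold larger in DES (log2 4.46 ± 0.33, edgeR adjusted p = 2.55e-04). Basal and myeloid markers differed in these spots as given above, and their part in the change was not tested. Hspa1a and Hspa1b, which encode inducible chaperones and are so alike in sequence that the split of reads between them is uncertain, had log2 changes of 1.93 ± 0.33 and 1.46 ± 0.25 (edgeR adjusted p = 0.0106 and 0.0104). Of the 15 heat shock genes these 3 were higher and 0 lower. Of 31 other immediate early genes 1 was higher (Sgk1) and 2 lower (Klf4 and Cebpd), where 6.26% of all genes were called.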
